A study of Mus musculus with 2 samples.

Results

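The genes described here are 10 endothelial junction and angiopoietin genes, namely the secreted ligands Angpt1 and Angpt2, the receptors Tek (TIE2) and Tie1, the junction and contact genes Pecam1, Cdh5, Esam and Cldn5, the surface sialomucin gene Emcn and the secreted-factor gene Egfl7. They were chosen by symbol, with each symbol mapped to its Ensembl identifier, and all 10 of the 10 had a row among 43346 genes with Ensembl identifiers. The study sequenced total RNA longer than 200 nt from the limbs of mice at embryonic day 14.5 (strain B6NCrl), in 2 libraries made from 10 ng each. Per the labels, 4 limbs were taken per pup, and the samples were collected on different days. There is 1 group, with no treatment, genotype or time to compare, so levels are given per library and as mean ± SD over n = 2.

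Endothelial cells line blood and lymphatic vessels and hold to each other through adherens junctions, built on the VE-cadherin encoded by Cdh5, and tight junctions, in which the claudin encoded by Cldn5 is a main component. ANGPT1, made mostly by mesenchymal and mural cells around vessels, activates the receptor TIE2 on endothelium and is known for settling and stabilising vessels, while ANGPT2, made largely by endothelium, blocks or weakly activates TIE2 according to context. TIE1 is a partner of TIE2 without a fully established ligand of its own. In the growing limb this system acts while the early capillary network is remodelled into arteries and veins.

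The libraries held 34193161 and 32879425 expected counts, which are estimated reads, in replicates 1 and 2, and each member had between 526 and 2363 of them in each library. The label gives the sex as pooled, but the Y-linked gene Ddx3y stood at 29.6 TPM in replicate 1 and was listed at 0 in replicate 2, where Xist stood at 79.0 TPM against 0.03 in replicate 1. Any difference between the libraries therefore also compares samples that differ in sex-linked RNA, and its part in the results was not tested. Of the marker lists, 29 of 30 other endothelial marker genes and 10 of 10 limb mesenchyme marker genes reached 1 TPM in both libraries. The epidermal, red blood cell and muscle lists each did so with 10 of 10. Such counts show that these genes were detected and cannot check the tissue label. TPM is an abundance per transcript length, scaled to a fixed total, and can be compared between genes. In a whole tissue such as this, fewer cells of a type and less RNA per cell cannot be told apart.

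All 10 genes were expressed, from about 8 to 82 TPM, and their order was the same in both libraries apart from 2 neighbouring pairs. Egfl7, whose product is secreted by endothelium into the matrix, was the highest with 83.6 TPM in replicate 1 and 80.2 TPM in replicate 2. Esam, an immunoglobulin-type adhesion gene of tight junctions, followed with 33.9 and 37.0 TPM. Pecam1 (CD31), an adhesion gene of the lateral endothelial border, stood at 30.2 and 31.1 TPM. Each of these genes lay above the next without overlap of the library values. Cdh5 was measured at 26.4 and 26.0 TPM and Emcn, a marker of capillary and venous endothelium, at 27.0 and 24.4 TPM. The values of Cdh5 and Emcn overlapped, so their order is not settled. Cldn5 stood at 20.1 and 23.0 TPM, below both, although its deposited credibility interval overlapped that of Emcn in replicate 2.

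The receptors and ligands formed the lower part of the order. Tie1 was at 13.6 and 12.8 TPM and Tek at 12.1 and 12.0 TPM, again without overlap. Angpt1 was at 8.32 and 10.5 TPM and Angpt2 at 8.48 and 8.23 TPM, and these overlapped, with Angpt2 the higher in replicate 1 and Angpt1 in replicate 2. Of the 9 neighbouring pairs in the order, 2 overlapped. Among 13191 protein-coding genes at 1 TPM or more in both libraries, Egfl7 ranked 1755 by mean level, Tek 8215 and Angpt2 9382. The median of the 10 means was 23.6 TPM, beside 18.6 TPM for those 13191 genes. The 10 genes together came to 264 ± 1.07 TPM (SD, n = 2), of which Egfl7 held 31.0%. The level, rank and share of Egfl7 rest in part on short transcripts of the gene. Its mean was 40.3 TPM without transcripts that begin away from the RefSeq starts, with their reads dropped and not assigned again.

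**Figure D1:**
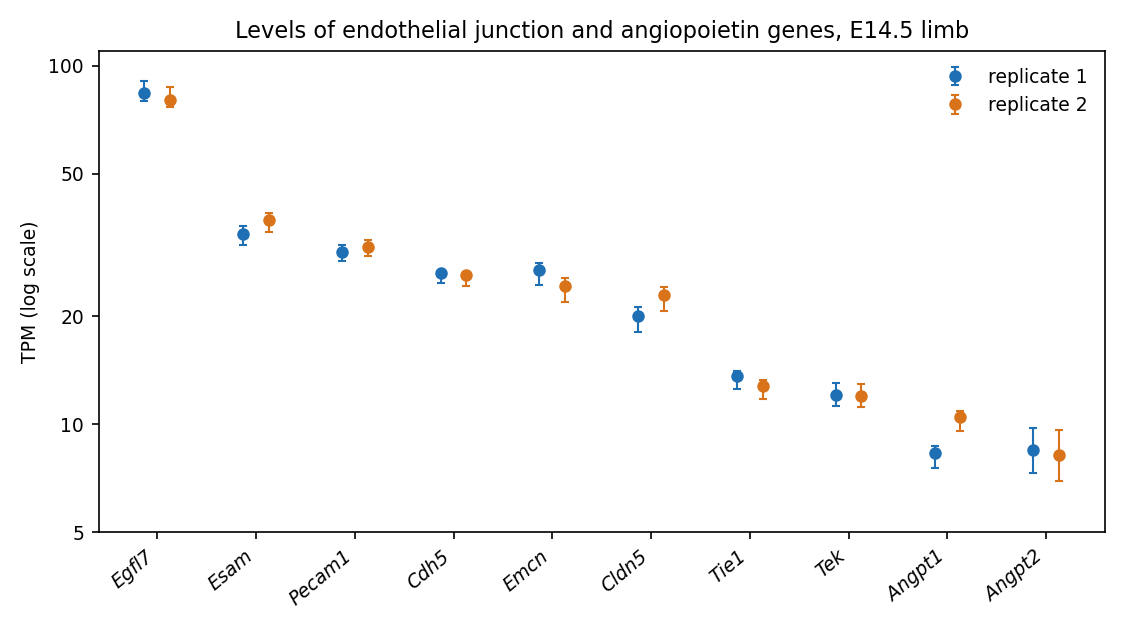
TPM of each of the 10 genes (log axis) in replicate 1 (blue) and replicate 2 (orange), ordered by mean, with bars for the credibility intervals that the authors deposited. Egfl7 lies near 82 TPM, the junction genes between 20.1 and 37.0 TPM, and the intervals of the libraries are apart for Angpt1 alone.

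The ligands of the angiopoietin system were lower than its receptors, and neither ligand was clearly the higher of the pair. Angpt1 (chromosome 15, 42424723 to 42676977, minus strand) and Angpt2 (chromosome 8, 18690263 to 18741562, minus strand) summed to 16.8 TPM in replicate 1 and 18.7 TPM in replicate 2. Tek (chromosome 4, 94739289 to 94874976, plus strand) and Tie1 (chromosome 4, 118471191 to 118490061, minus strand) summed to 25.7 and 24.8 TPM. The summed ligands over the summed receptors had a log2 ratio of −0.51 ± 0.15 (SD, n = 2). The log2 ratio of Angpt2 over Angpt1 was 0.03 in replicate 1 and −0.35 in replicate 2, so its mean of −0.16 was smaller than its SD of 0.27. Tek was below Tie1 in both, with a log2 ratio of −0.13 ± 0.06, although their deposited intervals overlapped. The phosphatase gene Ptprb (VE-PTP), whose product removes phosphate from TIE2, stood at 1.85 and 1.87 TPM and was below Tek by a log2 ratio of −2.63 ± 0.01. The further ligand gene Angpt4 stood at 0.27 and 0.21 TPM. No ratio was tested, since the smallest p that an exact permutation test allows with 2 libraries is 0.5.

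Among the junction genes the ratios to Cdh5 (chromosome 8, 104101625 to 104144511, plus strand) kept their sign in both libraries. Esam (chromosome 9, 37528078 to 37538319, plus strand) exceeded Cdh5 by 0.43 ± 0.10 on the log2 scale and Pecam1 (chromosome 11, 106654217 to 106750628, minus strand) by 0.22 ± 0.05. Cldn5 (chromosome 16, 18776847 to 18778262, plus strand) was below Cdh5, with a log2 ratio of −0.29 ± 0.15. Emcn (chromosome 3, 137341067 to 137432185, plus strand) was below Pecam1, with −0.26 ± 0.13. Each of these means was larger than its SD over the libraries.

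Claudins are also the tight junction proteins of epithelia, and Cldn5 was not the leading claudin of the limb. By mean level it had rank 3 among 22 claudin genes, behind Cldn4 at 47.5 and 38.0 TPM and Cldn1 at 28.2 and 21.1 TPM, both claudins of epithelia. In replicate 2 Cldn5 lay above Cldn1, and in replicate 1 below it. Cldn5 held 11.6% of the summed claudin TPM in replicate 1 and 14.0% in replicate 2. Of the 21 other claudins, 12 reached 1 TPM in both libraries and 9 were below it in both, among them Cldn16, Cldn17 and Cldn18, listed at 0. Of the 15 other claudins tested, 3 were higher in replicate 2 and 4 lower by the exact binomial test. That test called 12.7% of all genes higher and 14.8% lower. edgeR's exact test called 0 of the other claudins. Of 10 epidermal marker genes, 9 were lower in replicate 2 by the exact binomial test and 0 were called by edgeR's exact test. Their summed level was 1460 TPM in replicate 1 and 1270 TPM in replicate 2. Their part in the share of Cldn5 was not tested.

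Between the libraries, 1 of the 10 genes was higher in replicate 2 and 2 were lower. Counts were compared by a two-sided exact binomial test, adjusted by Benjamini-Hochberg over 19153 genes, which compares these libraries and not conditions, covers counting error only and has no replicate check. It called 12.7% of all genes higher and 14.8% lower, together 27.5%, so 3 of 10 is near the background. The split over all genes, 2439 higher and 2835 lower, depended on the scale, with 3334 and 2233 when total counts set it and 4167 and 1871 when spike-in counts did. Angpt1 was higher in replicate 2, with 937 counts against 796, a fold of 1.19 (95% interval 1.09 to 1.31, adjusted p = 0.00174 by the exact binomial test). Emcn was lower, with 749 counts against 896, a fold of 0.848 (0.769 to 0.936, adjusted p = 0.00526 by the exact binomial test). Tie1 was lower, with 1064 counts against 1223, a fold of 0.883 (0.812 to 0.959, adjusted p = 0.0144 by the exact binomial test), a call lost when total counts or spike-in counts set the scale. Cdh5 had a fold of 0.932 (0.879 to 0.988) and an adjusted p of 0.0622 by the exact binomial test, and the other 6 folds ran from 0.905 for Angpt2 to 1.08 for Cldn5.

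The log2 ratio of Angpt1, 0.26, was the farthest from 0 of the 10, and 8.38% of the 9440 genes that summed to at least 1000 counts lay farther out, as did 33.9% of all genes tested. edgeR's exact test, with 1 common dispersion estimated over all genes and so including their spread between libraries, called 0 of the 10 genes, and 0 had an unadjusted p below 0.05, against 4 by the binomial test. Over 16920 genes it called 0.177% higher and 0.491% lower in replicate 2, together 0.668%. The deposited credibility intervals of TPM did not overlap for 1 of the 10 genes, Angpt1, at 7.56 to 8.69 TPM and 9.59 to 10.9 TPM, beside 22.3% of all genes at 1 TPM or more in both libraries. The median log2 ratio of the 10 genes was −0.08, beside 0.00 for all genes tested. On the TPM scale the ratios lay higher, since the median log2 TPM ratio of 15307 genes was 0.07.

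**Figure D2:**
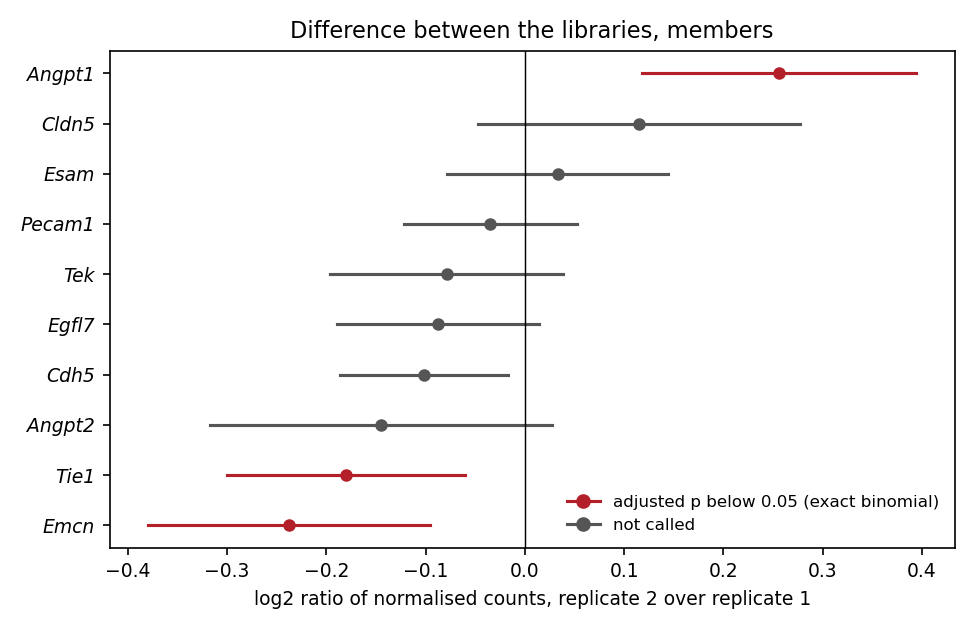
Log2 ratio of normalised counts, replicate 2 over replicate 1, for each of the 10 genes, with 95% exact binomial intervals that cover counting error only. Angpt1 at 0.26 lies to the right and Tie1 at −0.18 and Emcn at −0.24 to the left of 0 (red, called), and the other 7 genes were not called (grey).

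Lists of related genes were compared in the same way, with the members left out. Over all genes the exact binomial test called 12.7% higher and 14.8% lower, together 27.5%. The calls of each list stand beside these shares and cover counting error only. Of 22 other genes of the angiopoietin-TIE pathway, 20 were at 1 TPM or more in each library, 5 were called higher in replicate 2 and 1 lower by the exact binomial test, with a median log2 ratio of 0.05. The most abundant were Itgb1, an integrin subunit gene, at 223 and 222 TPM and Mmp14, a membrane-bound matrix protease gene, at 188 and 205 TPM. Akt1, a kinase that acts downstream of TIE2, was among those called higher, at 114 and 139 TPM. So was Foxo1, a transcription factor that AKT holds out of the nucleus, at 5.44 and 6.55 TPM. The related genes Akt2, at 86.0 and 91.1 TPM, and Foxo3, at 8.3 and 9.01 TPM, were not called. Itgb1 was the gene called lower. Of 32 other adherens and tight junction genes, each at 1 TPM or more in each library, 5 were higher and 9 lower, with a median log2 ratio of −0.04. The most abundant was Ctnnb1, the beta-catenin gene, at 451 and 469 TPM. Of 30 other endothelial marker genes, 2 were higher and 4 lower, with a median of 0.00, led in level by Cd34 at 82.9 and 77.4 TPM. edgeR's exact test called 0 genes in each of these 3 lists.

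Markers of other cells that express some members were measured beside them. Platelets and their precursors also carry PECAM1 and ESAM. Of 10 megakaryocyte and platelet marker genes, 5 were at 1 TPM or more in each library, and the list summed to 73.1 and 60.6 TPM, most of it Pf4 at 59.0 and 46.02 TPM. Leukocytes carry PECAM1 as well, and 8 of 10 leukocyte marker genes reached 1 TPM in both, with a summed level of 296 and 293 TPM, while the lymphocyte genes Cd3e and Cd79a stayed at or below 0.29 TPM. The part of these cells in the levels of Pecam1 and Esam was not tested.

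Mural and mesenchymal cells are known sources of ANGPT1. Of 12 pericyte and smooth muscle marker genes, 1 was higher in replicate 2, Pdgfrb, and 7 were lower by the exact binomial test. That test called 12.7% of all genes higher and 14.8% lower. The list had a summed level of 452 and 378 TPM. Its most abundant genes were Acta2, at 251 and 189 TPM, and Des, at 59.6 and 44.9 TPM, and Des is also in the muscle list. Of 10 limb mesenchyme marker genes, 5 were higher and 5 lower. Their part in the difference of Angpt1 was not tested. Red blood cell, muscle and epidermal lists lay lower in replicate 2, with 8, 10 and 9 of 10 genes called lower by the exact binomial test and median log2 ratios of −0.67, −0.60 and −0.29. edgeR's exact test called 3, 3 and 0 genes of these lists, and 0 in the pericyte and mesenchyme lists.

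**Figure D3:**
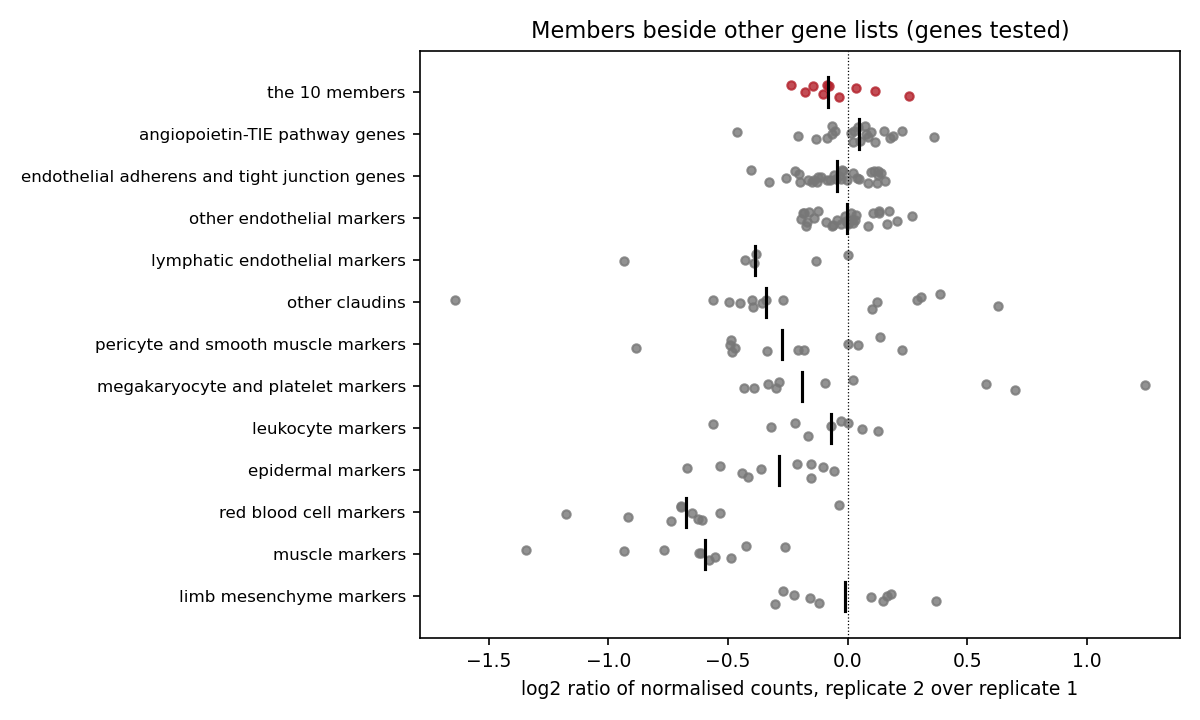
Log2 ratio of normalised counts, replicate 2 over replicate 1, of the 10 members (red) and of the tested genes of 12 other lists without the members (grey), with a black bar at each median. The members and the 3 lists around them centre between −0.08 and 0.05, and red blood cell and muscle genes centre at −0.67 and −0.60.

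Transcripts were resolved for 7 of the 10 genes. Angpt1, Cdh5 and Cldn5 had 1 annotated transcript each in the tables, and the 10 genes had 47 in all, of which 6 were listed at 0 in both libraries. The leading transcript was the same in both libraries for all 7 genes. Over 10023 genes with 2 or more transcripts, 8.84% had a different leader in each library. In Esam, Tie1, Emcn and Angpt2 the leader held most of the gene's TPM, at 93.1 ± 1.21%, 87.4 ± 0.955%, 86.3 ± 0.502% and 84.2 ± 1.23% (SD, n = 2). In Tek and Pecam1 it held 52.6 ± 2.56% and 52.0 ± 4.82%, and in Egfl7, with 19 transcripts, 29.0 ± 5.59%. These shares are estimates made from reads that mostly fit several transcripts of a gene.

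**Figure D4:**
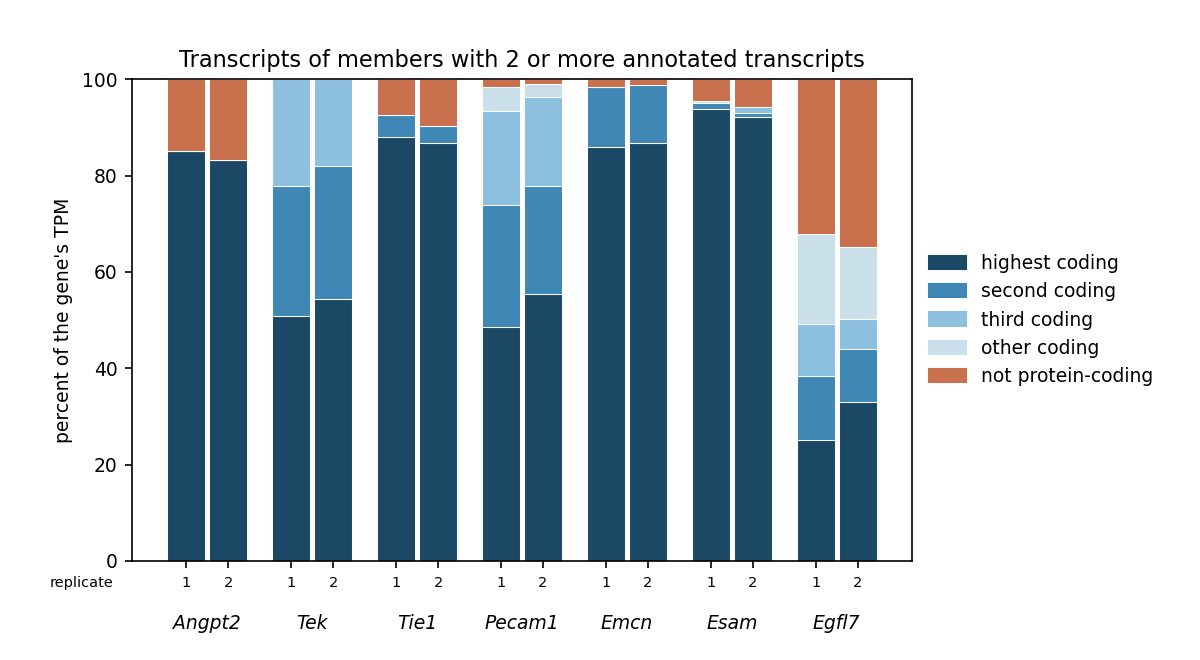
Percent of each gene's TPM held by its coding transcripts, from highest (dark blue) to lowest, and by transcripts that are not protein-coding (orange), with replicate 1 on the left and replicate 2 on the right of each pair. Not protein-coding transcripts hold 32.1% and 34.8% of Egfl7 and 14.9% and 16.7% of Angpt2, and under 10% in the other 5 genes.

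In Tek the coding parts of the transcripts differed by a skipped coding exon and by the end of another. The transcripts also began and ended at different positions, and Tek-201 was the shortest, with 4176 nt against 4654 nt for Tek-203. Their shares may therefore rest also on reads outside these coding differences. The exon of 153 nt (exon 4 of 23 in transcript Tek-203), a multiple of 3 that keeps the reading frame, was held by Tek-203 and Tek-201 and absent from Tek-202. It was in 73.0% of Tek TPM in replicate 1 and 72.4% in replicate 2. It is shown because the form without it held 27.3 ± 0.424% of Tek TPM (SD, n = 2). Its sequence in GENCODE M21 (GRCm38, the assembly that mm10 names) is on the plus strand at chr4:94799127-94799279.
Tek exon 4: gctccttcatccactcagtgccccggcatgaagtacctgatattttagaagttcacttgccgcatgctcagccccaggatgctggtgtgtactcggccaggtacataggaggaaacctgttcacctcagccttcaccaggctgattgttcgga
The coding parts of Tek-203, Tek-202 and Tek-201 are 3369, 3216 and 3366 nt long. Tek-201 ends exon 14 earlier by 3 nt than the others and held 22.2% in replicate 1 and 18.0% in replicate 2, a mean of 20.1 ± 2.98% (SD, n = 2). The last 30 nt of the longer exon, which ends at position 94851877, are shown with the 3 nt that Tek-201 lacks in capitals.
Tek exon 14 end: aggagaatggctcaggcattccagaacGTG
Reads that cross this exon end differ between the forms by these 3 nt only.

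In Pecam1 the most abundant form lacked both alternative exons near the end of the coding part, where the cytoplasmic tail of the protein is encoded. The exon of 57 nt (exon 14) was absent from the leading transcript Pecam1-203 and was present in 50.4% of the TPM of 4 compared coding transcripts in replicate 1 and 43.3% in replicate 2, a mean of 46.9 ± 5.01% (SD, n = 2). The exon of 23 nt (exon 15), which is not a multiple of 3, was in Pecam1-204 and Pecam1-207 and made up 24.6% and 20.4%, a mean of 22.5 ± 2.95%. Both are shown since they separate the 3 main forms: Pecam1-203 at 48.6% and 55.5% without either, Pecam1-202 at 25.3% and 22.4% with the first, and Pecam1-204 at 19.4% and 18.4% with both. They are given as transcribed from the minus strand, at chr11:106671742-106671798 and chr11:106662002-106662024.
Pecam1 exon 14: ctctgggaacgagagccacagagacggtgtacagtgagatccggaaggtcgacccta
Pecam1 exon 15: atctcatggaaaacagatactct
A further coding exon of 303 nt was absent from Pecam1-207, at 4.71% and 1.63%. The deposited intervals of TPM of these transcripts overlapped between the libraries.

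In Emcn the leading transcript lacked a coding exon of 39 nt, a multiple of 3, that Emcn-202 holds as exon 5 of 12. The form with it was 12.6% of the TPM of these 2 transcripts in replicate 1 and 12.3% in replicate 2, a mean of 12.4 ± 0.220% (SD, n = 2). It lies on the plus strand at chr3:137403984-137404022.
Emcn exon 5: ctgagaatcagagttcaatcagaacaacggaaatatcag
The coding parts are 744 nt in Emcn-201 and 783 nt in Emcn-202. The transcripts also begin and end at different positions, and Emcn-202 has 2588 nt in all against 1357 nt for Emcn-201. Their shares may therefore rest also on reads outside the exon shown.

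Angpt2 had a coding transcript, Angpt2-201, and a shorter one of 652 nt that is not protein-coding. The short one took 16.1 and 16.3 of 590 and 526 counts, yet 14.9% and 16.7% of the TPM, since TPM is per length. Tie1-201, the full-length coding form, held 88.03% and 86.7% of Tie1, and a coding transcript with a shorter coding part of 1941 nt in place of 3402 nt held 4.52% and 3.63%. Esam-201 held 93.9% and 92.2% of Esam.

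Egfl7 (chromosome 2, 26580014 to 26593120, plus strand) had the most complex transcript makeup of the 10 genes, with 3 RefSeq start sites and the microRNA gene Mir126a inside it. The mature microRNA of the main arm is shown with its seed, bases 2 to 8, in capitals, because Egfl7 RNA is its host transcript and miR-126 is known to act in endothelium beside EGFL7. It is taken from RefSeq (GRCm38.p6), chr2:26591402-26591423.
mmu-miR-126a-3p: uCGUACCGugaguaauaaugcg
The hairpin lies in an intron of 8 of the 19 Egfl7 transcripts, the leader among them, and in an exon of 1, Egfl7-206, which held 2.03% and 1.42%. The row of Mir126a, 73 nt long, had an effective length of 0 and is listed at 0 in both libraries, and RNA under 200 nt was not part of these libraries, so nothing was measured of the microRNA.

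Among the transcripts that begin within 100 nt of a RefSeq start, the middle start led. Transcripts of the middle start, Egfl7-202 among them, stood at 26.8 and 30.8 TPM in replicates 1 and 2, those of the downstream start at 11.1 and 6.19 TPM, and the single transcript of the upstream start at 3.02 and 2.61 TPM. As shares of the TPM of these starts, the middle one held 65.6% and 77.8%, a mean of 71.7 ± 8.63% (SD, n = 2), the downstream one 27.1% and 15.6%, a mean of 21.4 ± 8.08%, and the upstream one 7.38% and 6.59%. The order of the starts was the same in both libraries. Egfl7-216, the main transcript of the downstream start, held 10.8% and 6.26% of all Egfl7 TPM, and its deposited intervals overlapped. The coding parts of Egfl7-202, Egfl7-212 and Egfl7-216 have the same length of 834 nt, and Egfl7-201, also at the middle start, has 795 nt through a coding exon that ends earlier by 39 nt.

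The 250 bases before each of the 3 start sites are shown because the transcripts separate by them (RefSeq, GRCm38.p6, plus strand, chr2:26580833-26581082 for the upstream, chr2:26583615-26583864 for the middle and chr2:26586386-26586635 for the downstream start). Capitals mark GGAAG or its reverse complement CTTCC, a core that factors of the ETS family, among them endothelial regulators, are known to bind.
Egfl7 upstream start: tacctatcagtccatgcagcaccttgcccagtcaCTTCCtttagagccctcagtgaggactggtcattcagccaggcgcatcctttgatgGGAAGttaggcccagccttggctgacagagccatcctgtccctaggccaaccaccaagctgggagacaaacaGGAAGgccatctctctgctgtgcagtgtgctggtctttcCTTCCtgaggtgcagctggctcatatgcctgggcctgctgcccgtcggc
Egfl7 middle start: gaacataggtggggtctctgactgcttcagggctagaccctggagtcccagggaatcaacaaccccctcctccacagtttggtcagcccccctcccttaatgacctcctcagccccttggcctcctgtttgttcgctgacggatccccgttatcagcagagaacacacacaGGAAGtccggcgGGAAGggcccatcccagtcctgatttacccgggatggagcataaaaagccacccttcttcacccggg
Egfl7 downstream start: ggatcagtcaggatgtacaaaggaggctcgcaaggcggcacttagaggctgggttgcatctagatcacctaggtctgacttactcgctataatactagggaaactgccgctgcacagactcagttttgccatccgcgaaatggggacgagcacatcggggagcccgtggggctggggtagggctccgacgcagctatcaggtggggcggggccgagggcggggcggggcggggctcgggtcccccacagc
GGAAG was found at 4 places before the upstream start, 2 before the middle and 0 before the downstream start. Of 32851 windows of the same length, 64.1% hold it on either strand. The downstream window held GGGCGG, the SP/KLF letters, at 4 places, where 32.7% of windows hold it, and 17 CpG, beside a median of 6. The upstream and middle windows held no GGGCGG, and had 3 and 7 CpG. None of the 3 windows held AGATAA, letters bound by GATA factors (in 9.99% of windows), or TATAAA (in 12.4%), also on either strand. Only the exact letters named were searched, so variant sites of these factors were not counted and a 0 does not mean that a window has no site. Matches of GGAAG and GGGCGG did not share a window here. In the downstream window some neighbouring GGGCGG matches share a base, so the 4 places are not 4 separate sites. Of the other members, windows of Tek, Tie1, Emcn and Cldn5 were in the RefSeq table, with GGAAG at 0, 6, 2 and 0 places, so that 4 of 7 windows of 5 members held it.

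The other 11 Egfl7 transcripts begin elsewhere, most of them near the 3-prime end, and held 51.0% of Egfl7 TPM in replicate 1 and 50.6% in replicate 2. By counts, which do not weight short transcripts up, they held 32.0% and 31.7%, and the middle start 48.1% and 55.4%. The gene's TPM therefore depends on them. With the transcripts of the 3 RefSeq starts alone, Egfl7 stood at 40.9 and 39.6 TPM, still above Esam in both libraries. These values sum the deposited TPM of those transcripts. Reads given to the other transcripts were dropped and not assigned again, so the values may be too low. The retained-intron transcript Egfl7-214 was at 8.11 and 11.7 TPM, and it was the 1 of 24 compared transcripts of the members whose deposited intervals did not overlap, beside 9.46% of 24454 transcripts of genes with 2 or more. Transcripts that are not protein-coding held 32.1% and 34.8% of Egfl7, against a median of 7.35% over 10023 genes, which puts Egfl7 at percentile 78.7 of them.

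**Figure D5:**
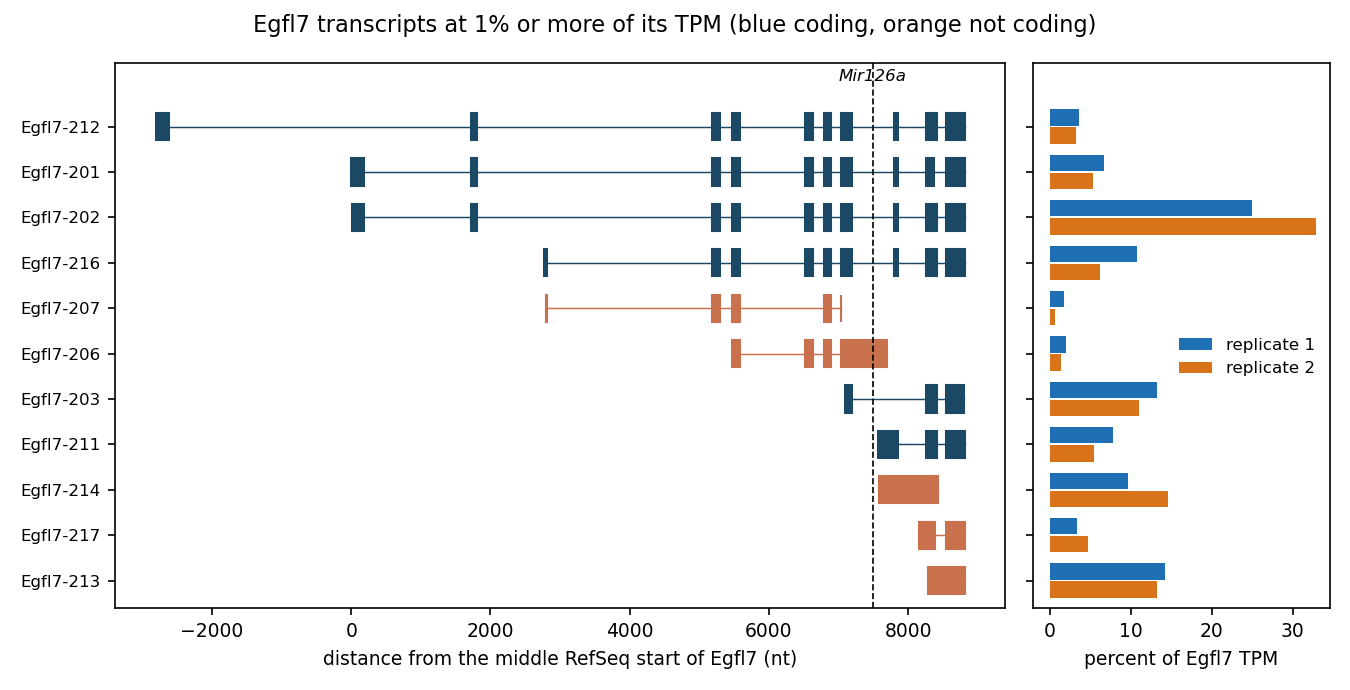
Left, exons (boxes) of the Egfl7 transcripts at 1% or more of its TPM, to scale, as the distance in nt from the middle RefSeq start, with the place of Mir126a dashed; right, percent of Egfl7 TPM in replicate 1 (blue) and replicate 2 (orange). Egfl7-202, from the middle start, leads with 25.0% and 32.9%, and the 5 lowest drawn transcripts begin near or past Mir126a.

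Some members share their place with other genes, and whether the counting used strand was not given in the sources used here. Angpt2 lies within Mcph1, a gene on the opposite strand at 11.01 and 12.2 TPM, with no shared exon. Egfl7 shares 64 nt of exon with Agpat2 on the opposite strand, at 18.7 and 22.3 TPM, and 264 nt with the readthrough gene Gm20532, listed at 0 in both libraries. Angpt1 shares 737 nt with the antisense gene Gm17473, at 0.07 TPM in replicate 1 and listed at 0 in replicate 2. The count of Angpt1 in replicate 1 was 795.62, not whole, although the gene has 1 transcript.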

How the data were processed

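RNA sequencing of embryonic limb gave a gene table and a transcript table for each of 2 libraries, on mm10 with GENCODE M4 and from transcriptome alignments, per the notes filed with the samples; software names were not given in the sources used here. Expected counts (estimated reads that need not be whole), TPM (abundance per transcript length, scaled to a fixed total) and each transcript's percent share of its gene's TPM were deposited by the authors, as were TPM credibility intervals of a level not stated in the labels or headers. FPKM values were also deposited by the authors and not used.

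Symbols, positions and exons came from GENCODE M21 (GRCm38), in which 42462 of 43346 identifiers had an entry. The 47 transcripts of the members matched by identifier, 44 with the same length. MicroRNA and promoter sequences came from RefSeq (GRCm38.p6), which held promoters for 5 of the members.

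Expected counts were rounded. A two-sided exact binomial test compared them between the libraries, given library sizes by TMM without spike-ins (edgeR 4.0.16, R 4.3.3), in genes summing to at least 10 counts; p-values were adjusted by Benjamini-Hochberg and called at 0.05; edgeR's exact test used the common dispersion of the same libraries. A quasi-likelihood fit has no residual degrees of freedom here. Ratios used log2(TPM + 0.1), which understates folds of low genes. Python 3.11.15, scipy 1.17.1 and DESeq2 1.42.0 (size factors) were also used, and the tests were tested on simulated data. The binomial intervals cover counting error only, since there is 1 library on each side. The labels record no molecular identifiers, and the depth is the count given with each value. The labels call the samples biological replicates but give both the same donor identifier, so the SD may measure only the spread between these samples. Sex-linked RNA differed between them, as given above, so the identifier does not stand for a single animal.

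The members, gene lists, ratios and tests were chosen with earlier results of these data known. All members were named. Other genes could be named where they belong to a ratio, are among the 2 most abundant of a list or lie below 1 TPM, and only some are. Akt1, Akt2, Foxo1, Foxo3, Pdgfrb, Prox1, Lyve1 and Flt4 were named after their values were seen. No gene was named for a like pattern, because 2 libraries give none to compare. Coding exons were compared among coding transcripts at 1% or more of a gene's TPM. Alternatives are in the closing section.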

Additional observations from a re-analysis of the deposited data

How the results depend on the processing

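Detection of all 10 members held at 0.5 and 2 TPM, with posterior mean TPM and in each library alone, and the leading transcript was the same in both libraries for the 7 genes under both other definitions. The number of members called higher in replicate 2 was 1 under each scaling and count filter and 0 by edgeR's exact test; the number called lower was 2, and 3 with DESeq2 size factors, 1 with total counts or spike-in counts and 0 by edgeR's exact test, whose error includes the spread of typical genes. Pecam1 changed sign with spike-in counts, to a log2 ratio of 0.026, and Cdh5 was called lower with DESeq2 size factors, at −0.11. The log2 ratio of Ptprb over Tek, whose SD was very small, was −2.19 with a pseudocount of 1, −2.69 with 0.01 and −2.67 with posterior mean TPM. With total counts, genes called lower in the pathway, junction and other endothelial lists numbered 1, 4 and 1, against 2, 9 and 4 (members included). The mean TPM of Egfl7 was 40.3 ± 0.962 (SD, n = 2) with transcripts at RefSeq starts alone, in place of 81.9 ± 2.43. This alternative was chosen after seeing the data, and reads of the other transcripts were dropped and not assigned again. The causes were not tested. The 2 libraries limit every SD, and counts of 526 to 2363 limit folds to intervals of about the widths given. No paired analysis was possible because there is 1 group.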

Other observations

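Most markers of lymphatic endothelium were lower in replicate 2 by the test that covers counting error only. Of 6 such genes, 5 were called lower by the exact binomial test, beside 14.8% of all genes, 4 when total counts set the scale and 1 by edgeR's exact test. The list summed to 139 and 120 TPM, with 6 of 6 genes at 1 TPM or more in each library. Pdpn, the most abundant of them, stood at 61.85 and 59.4 TPM, and Prox1 at 2.41 and 2.08 TPM. Both were among those called lower by the exact binomial test. Lyve1, a hyaluronan receptor of lymphatic endothelium and of some macrophages, stood at 7.51 and 4.14 TPM and was also called by edgeR's exact test (adjusted p = 0.0185). The chemokine gene Ccl21a stood at 59.2 and 46.4 TPM, and the receptor gene Flt4, at 5.21 and 5.59 TPM, was not called. Lyve1 was the 1 gene among the lymphatic, angiopoietin-TIE, junction and other endothelial lists that edgeR's exact test called; it is singled out here after its value was seen.

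Of the 19 Egfl7 transcripts, 3 begin within 20 nt past the end of the Mir126a hairpin, namely Egfl7-211 at 5 nt, Egfl7-208 at 6 nt and Egfl7-214 at 17 nt. Together they held 17.5% of Egfl7 TPM in replicate 1 and 20.1% in replicate 2, with Egfl7-208 listed at 0 in both.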
